A study of Mus musculus with 6 samples.

Results

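Satb1, Tox, Tox2, Themis and Myb are genes of nuclear regulators and signaling proteins that act in developing T cells, and the accessible chromatin around all 5 of them was described in Beko cells. The members were the ATAC-Seq peaks that overlapped the body of one of these genes or the 100 kb to either side of it. They were 53 of the 32527 peaks of the deposited list (0.163%), spread over 5 windows that summed to 1775 kb, and no peak lay in more than 1 window. Peaks within 1 kb of a start of the gene itself were counted apart, and the peaks farther upstream of Satb1 and the introns of Tox were examined in addition.

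Beko cells are a line of mouse progenitor T cells with constant Notch activity. ATAC-Seq reads come from a transposase that inserts its adapters where DNA is not covered by nucleosomes, so that a peak marks a stretch of accessible chromatin. The series held 6 libraries of this 1 line. In 3 of them the cells had been treated for 24 h with DAPT, a γ-secretase inhibitor (GSI) that blocks the release of the active Notch fragment, and in the other 3 with the solvent DMSO. The labels give the DAPT dose as 10 mg/ml whereas the study's methods give µg/ml. The deposited list merged both treatments and gave the position of each peak without a value per library, so that GSI and DMSO were not compared and no value below has a replicate error. Positions refer to mouse build mm9.

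Satb1 encodes a chromatin organizer that binds AT-rich DNA and is abundant in thymocytes. Tox and Tox2 encode HMG-box proteins, and Tox is required for the development of CD4+ T cells in the thymus. Themis encodes an adaptor of T-cell receptor signaling needed for the positive selection of thymocytes, and Myb encodes a transcription factor of hematopoietic progenitors and early T cells. Such genes are commonly controlled by enhancers far from their starts, where factors of the RUNX, TCF1/LEF1, GATA, ETS and E protein families bind, and where RBPJ, the DNA-binding factor of the Notch pathway, can bring in the cleaved receptor.

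The cell type named in the labels was compared with marker genes. Of 9 genes that mark progenitor T cells, 8 had a peak within 1 kb of a start, and Cd3d did not. None of 4 B-cell genes and none of 3 genes of other tissues had one. Of 4 myeloid genes only Spi1 did, and both erythroid genes, Gata1 and Klf1, had one. All 5 member genes had such a peak, beside 46.9% of all 22380 protein-coding genes.

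The sequences that carry the distal results are given first. For each window the centre of the widest distal peak is printed, where distal means more than 1 kb from every annotated start, together with the 2 wider peaks in the introns of Tox and the widest of the far upstream peaks of Satb1. Capitals mark the letters of 9 motif cores searched on both strands, which were TGGGAA for RBPJ, CAGCTG for E proteins, TGTGGT for RUNX, CTTTGA for TCF1/LEF1, AGATAA for the GATA factors, the letters GGAAGT for ETS, GGCNGTT for MYB, TGANTCA for AP-1 and GGGCGG for SP factors. The RBPJ and ETS cores can overlap by sharing GGAA. A match of letters is a description of the sequence and not a binding site.
Tox intron 1, widest peak, chr4:6828986-6829285 (plus strand): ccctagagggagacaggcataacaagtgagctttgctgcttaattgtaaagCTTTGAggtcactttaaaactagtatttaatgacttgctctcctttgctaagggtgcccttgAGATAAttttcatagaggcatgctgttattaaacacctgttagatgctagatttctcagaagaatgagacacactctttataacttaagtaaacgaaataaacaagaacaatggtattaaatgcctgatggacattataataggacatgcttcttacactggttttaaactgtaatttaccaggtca
Tox intron 1, next in width, chr4:6861807-6862106 (plus strand): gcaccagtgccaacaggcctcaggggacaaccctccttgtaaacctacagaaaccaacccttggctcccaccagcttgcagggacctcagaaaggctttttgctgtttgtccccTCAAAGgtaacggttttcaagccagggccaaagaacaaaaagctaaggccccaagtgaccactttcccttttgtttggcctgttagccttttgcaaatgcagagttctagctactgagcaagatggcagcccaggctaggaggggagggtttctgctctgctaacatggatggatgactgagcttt
Satb1, widest distal peak of the window, chr17:52018780-52019079 (plus strand): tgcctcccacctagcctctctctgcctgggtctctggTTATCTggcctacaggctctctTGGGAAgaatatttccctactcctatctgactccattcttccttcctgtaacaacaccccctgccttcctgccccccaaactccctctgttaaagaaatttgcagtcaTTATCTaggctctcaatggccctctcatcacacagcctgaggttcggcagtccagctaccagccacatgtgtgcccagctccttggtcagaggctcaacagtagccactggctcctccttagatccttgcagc
Satb1, widest far upstream peak, chr17:52601197-52601496 (plus strand): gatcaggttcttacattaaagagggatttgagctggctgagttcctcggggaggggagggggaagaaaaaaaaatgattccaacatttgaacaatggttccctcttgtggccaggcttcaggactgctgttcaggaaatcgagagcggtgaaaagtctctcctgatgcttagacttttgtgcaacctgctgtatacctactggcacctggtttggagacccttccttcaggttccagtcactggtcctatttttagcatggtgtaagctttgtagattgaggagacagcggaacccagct
Tox2 intron 2, chr2:163079187-163079486 (plus strand): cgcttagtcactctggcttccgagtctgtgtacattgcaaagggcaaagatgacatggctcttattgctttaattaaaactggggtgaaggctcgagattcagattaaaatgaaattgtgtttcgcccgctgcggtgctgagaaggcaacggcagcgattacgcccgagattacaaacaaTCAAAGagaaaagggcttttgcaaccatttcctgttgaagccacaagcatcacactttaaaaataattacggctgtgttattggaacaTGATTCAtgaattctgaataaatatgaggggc
Themis, peak inside Ptprk, chr10:28287396-28287695 (plus strand): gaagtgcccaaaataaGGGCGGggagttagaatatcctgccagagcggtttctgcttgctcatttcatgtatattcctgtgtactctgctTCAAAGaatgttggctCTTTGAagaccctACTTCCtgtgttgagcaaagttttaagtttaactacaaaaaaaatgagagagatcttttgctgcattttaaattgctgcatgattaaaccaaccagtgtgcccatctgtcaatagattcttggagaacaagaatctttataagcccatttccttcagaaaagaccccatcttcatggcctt
Myb, downstream peak, chr10:20812668-20812967 (plus strand): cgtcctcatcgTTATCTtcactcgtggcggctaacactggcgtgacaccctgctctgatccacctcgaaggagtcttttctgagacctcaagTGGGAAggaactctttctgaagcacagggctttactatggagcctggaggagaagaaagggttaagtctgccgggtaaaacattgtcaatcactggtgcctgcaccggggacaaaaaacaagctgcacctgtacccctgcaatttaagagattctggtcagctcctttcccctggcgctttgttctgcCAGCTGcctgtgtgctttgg

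The 300 bases at the centre of the widest intronic Tox peak held a TCF1/LEF1 and a GATA core, and that of the next in width held a TCF1/LEF1 core. The centre of the Satb1 peak held an RBPJ core between 2 GATA cores, and that of the Myb peak held a GATA, an RBPJ and an E protein core. The centre of the peak upstream of Themis held 2 TCF1/LEF1 cores beside an SP and an ETS core. This centre lay 100.6 kb from the 5′ end, just outside the window, which only the end of the peak reached. None of the 9 cores occurred in the centre of the widest far upstream peak of Satb1. The whole peak of 1148 bp held 3 TCF1/LEF1 cores, 1 E protein core and 1 ETS core.

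The promoters of Themis and Myb are printed to show how unlike the own starts of the members were. Each line gives the 200 bases before the 5′ end of the gene, read in the direction of transcription.
Themis promoter, chr10:28387966-28388165 (plus strand): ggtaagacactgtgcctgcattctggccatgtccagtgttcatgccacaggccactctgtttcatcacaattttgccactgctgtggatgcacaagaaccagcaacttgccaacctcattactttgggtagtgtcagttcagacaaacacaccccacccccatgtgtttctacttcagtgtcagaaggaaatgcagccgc
Myb promoter, chr10:20880791-20880990 (minus strand): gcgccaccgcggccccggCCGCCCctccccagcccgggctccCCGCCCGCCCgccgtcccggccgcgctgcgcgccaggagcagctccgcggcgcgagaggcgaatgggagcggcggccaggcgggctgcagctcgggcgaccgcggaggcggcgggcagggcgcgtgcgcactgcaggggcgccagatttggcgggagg

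The Myb promoter had a GC content of 83.5% with 34 CG dinucleotides and 3 SP cores, of which the last pair share letters. The Themis promoter had a GC content of 50% with 1 CG and none of the 9 cores.

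First, the number of peaks per gene was determined. With 14 peaks in 236.1 kb, or 5.93 per 100 kb, Myb had the most peaks and the highest density in windows with 100 kb flanks. Satb1 had 12 peaks (4.04 per 100 kb), Tox2 had 11 (3.43 per 100 kb), Themis had 10 (2.41 per 100 kb) and Tox had 6 (1.19 per 100 kb). The order by number depended on the flank, since with 50 kb Satb1 and Tox2 had 7 peaks each and Myb, Tox and Themis had 6 each. The median over the windows of all protein-coding genes was 2.36 peaks per 100 kb. Among those windows 12.3% were at least as dense as that of Myb, 28.2% as that of Satb1, 35.4% as that of Tox2, 49.1% as that of Themis and 66.3% as that of Tox. Thus Themis stood near the middle of all genes, Tox below it and the other 3 above it. In all, the members amounted to 2.99 peaks per 100 kb, with an exact Poisson interval of 2.24 to 3.91 that covers counting error only.

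**Figure D1:**
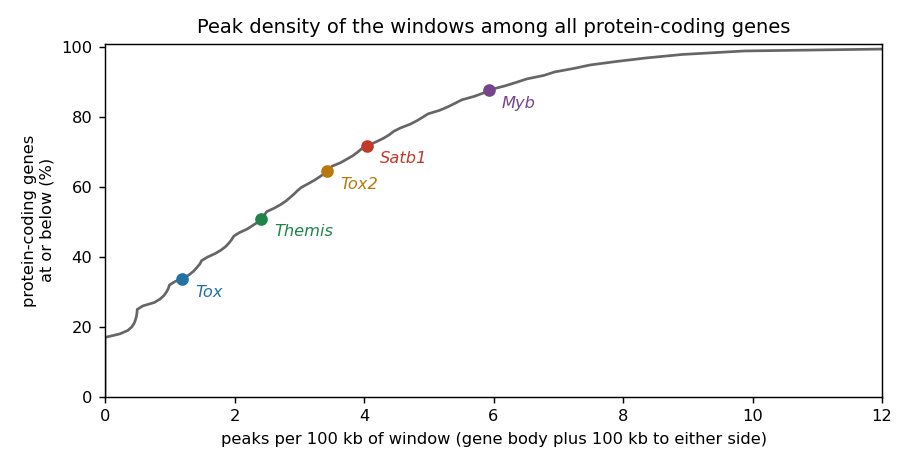
The x axis gives the peaks per 100 kb of window (gene body plus 100 kb to either side) and the y axis the percentage of protein-coding genes at or below that density, drawn as a grey line, with the 5 member genes as coloured points. The points run from Tox at 1.19 to Myb at 5.93 peaks per 100 kb, with Themis at 2.41 close to the median of 2.36.

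The Tox window was the longest, since the gene spans 305.2 kb. When only gene bodies were considered, Tox had 1.31 peaks per 100 kb and 38.7% of the 2401 protein-coding genes of at least 100 kb were as dense or denser, the median being 0.790. Themis, which spans 215.5 kb, had 1.39 peaks per 100 kb of body (37.5% at least as dense), and Tox2, which spans 121 kb, had 3.31 (16% at least as dense). Tox2 therefore had the densest body of the 3 long members. Satb1 and Myb are shorter than 100 kb and were not ranked.

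Peaks were next sorted by place. Of the 53 peaks, 8 lay within 1 kb of an own start, 3 near a start of another gene, 9 in an own intron, 17 between genes upstream, 5 between genes downstream, 9 in introns of neighbouring genes and 2 in exons of neighbouring genes. None was centred in an exon of a member gene away from its starts. Peaks within 1 kb of any annotated start made up 11 of 53 (20.8%, Wilson 95% interval 12 to 33.5%), beside 35.4% of all peaks in the list. The windows thus held a smaller share of start-proximal peaks than the list as a whole, and 42 member peaks were distal.

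**Figure D2:**
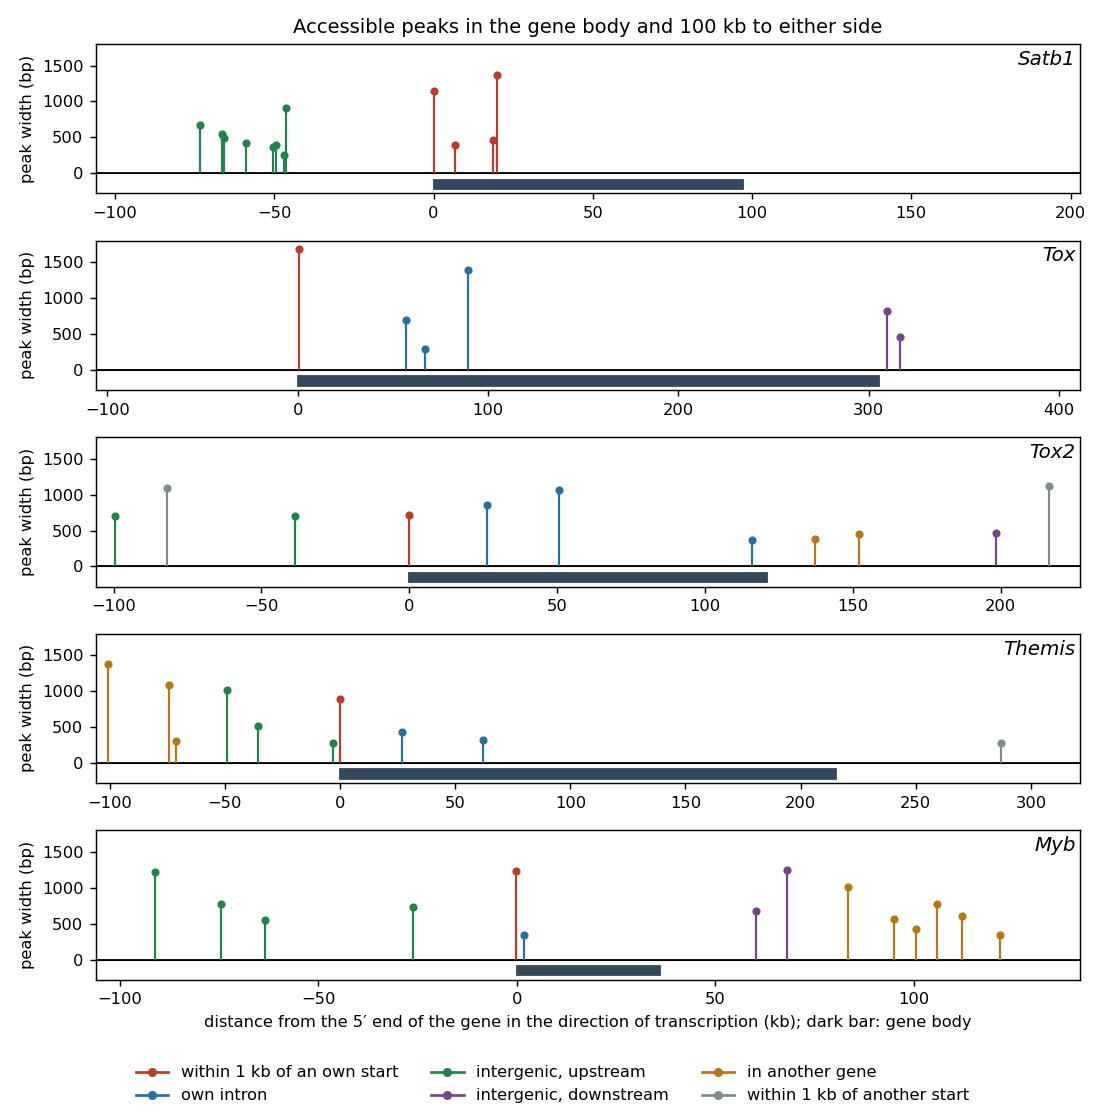
Each row is 1 gene, with the distance from its 5′ end in the direction of transcription (kb) on the x axis, the width of each peak (bp) as the height of its stem, and the gene body as a dark bar. Upstream peaks of Satb1 stand between 46.3 and 73.2 kb, the wider intronic peaks of Tox lie at 56.7 and 89.6 kb, and the 3′ parts of Satb1, Tox, Themis and Myb carry no peak.

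The own starts differed in number and in base composition. Satb1 has 15 annotated starts and had 4 peaks within 1 kb of one of them, a number reached by 0.192% of protein-coding genes. Tox, Tox2, Themis and Myb had 1 each. The 5′ peak of Satb1 (chr17:51971748-51972889) was 1142 bp wide and contained 2 starts, and the second GC-rich peak, at the internal starts 20.0 kb into the gene (chr17:51951894-51953260), was 1367 bp wide and also contained 2. Their GC contents were 71.7 and 71.2%. Between them lay a peak of 388 bp with 4 starts and a GC content of 55.4%. The remaining peak, of 466 bp and 39.3% GC, contained no start and stood 866 bp from the nearest one, so that a count of starts inside peaks gave 7 own-start peaks in place of 8.

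The peak at the start of Tox (chr4:6917203-6918885) was the widest of all members with 1683 bp. It covered 3 of the 4 annotated starts, and 2.31% of the peaks within 1 kb of a start were at least as wide. At Myb the own-start peak (chr10:20880387-20881622) measured 1236 bp, at Themis (chr10:28387824-28388712) 889 bp with all 5 starts inside, and at Tox2 (chr2:163028536-163029258) 723 bp. These widths fell on both sides of the median of 855 bp over all start-proximal peaks.

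A region was called CpG-rich when its GC content was at least 50% and its observed to expected CpG ratio at least 0.6. By this rule 5 of the 8 own-start peaks were CpG-rich, namely those of Tox, Tox2 and Myb and both wide peaks of Satb1. The own-start peak of Themis was not, with a GC content of 44.2% and a CpG ratio of 0.16. Neither were the narrower peaks of Satb1, with ratios of 0.29 and 0.17. Over all members 7 of 53 peaks (13.2%) were CpG-rich, beside 26.1% of the list and 68.3% of its start-proximal peaks. Among the 42 distal members the peak in intron 1 of Myb, 1.9 kb from the start, was the only CpG-rich one (63.3% GC, ratio 0.64). The median GC content of the distal members was 47.6%, beside 50.1% over all distal peaks.

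**Figure D3:**
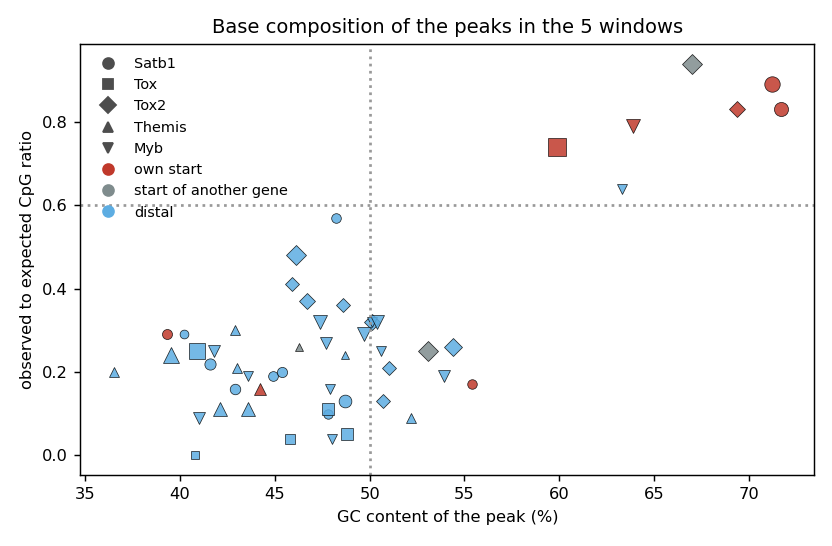
Each point is 1 of the 53 peaks, with its GC content (%) on the x axis and its observed to expected CpG ratio on the y axis, the shape giving the gene, the colour the class and the area growing with the width of the peak; dotted lines mark 50% and a ratio of 0.6. The own-start peaks of Tox, Tox2 and Myb and the 2 wide ones of Satb1 stand at the upper right, whereas that of Themis (44.2% and 0.16) and the 2 narrower ones of Satb1 have ratios below 0.6.

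Peaks at Satb1 were arranged on one side of the gene. In its window 4 peaks touched the body, 8 lay upstream and none lay downstream, and the last 76.4 kb of the body carried no peak. The upstream peaks began 46.3 kb from the 5′ end, after a gap of 45.6 kb, and ended at 73.2 kb. The first of them (chr17:52018474-52019386) was also the widest of these 8 with 913 bp, and 7.16% of all distal peaks were at least as wide. The next in width measured 668 bp at 73.2 kb and 548 bp at 66.4 kb, and the others measured 256 to 493 bp. When peaks within 1000 bp of each other were joined, the 12 peaks of the window became 8, so that several of them were close neighbours. An RBPJ core occurred in 5 of the 8 upstream peaks and an E protein core in none, beside 39.2% and 43.9% of all distal peaks.

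The stretch upstream of Satb1 continued to hold peaks far beyond 100 kb. The next protein-coding gene on that side, Kcnh8, lies 892.5 kb away, and 21 peaks were found between 100 kb and that gene. They stood between 234.7 and 758.7 kb from the 5′ end, which left no peak from 100 to 200 kb and none beyond 800 kb. Counted in steps of 100 kb, 1 peak lay between 200 and 300 kb, 4 between 300 and 400 kb, 7 between 400 and 500 kb, 2 between 500 and 600 kb, 3 between 600 and 700 kb and 4 between 700 and 800 kb. The interval from 400 to 500 kb was therefore almost as rich in peaks as the first 100 kb, which held 8.

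In order of distance, the far upstream peaks stood at 234.7, 329.7, 335.4, 349.6 and 387.4 kb, where they measured 555, 955, 620, 463 and 474 bp. Between 400 and 500 kb they stood at 445.4, 449.1, 452.3, 470.2, 471.1, 482.4 and 483.9 kb and measured 518, 704, 381, 458, 421, 400 and 585 bp. Beyond 500 kb those at 504.4, 518.2, 615.6, 628.7 and 635.3 kb measured 482, 587, 580, 1148 and 492 bp, and those at 720.4, 726.8, 736.5 and 758.7 kb measured 462, 498, 357 and 470 bp. The widest was the peak at 628.7 kb (chr17:52600774-52601921), with 2.60% of all distal peaks at least as wide, and the next was that at 329.7 kb (chr17:52301799-52302753), with 5.99%. That peak held 4 RUNX cores and 2 RBPJ cores over its whole length. When the count was ended at 500 kb, 12 of the 21 far upstream peaks remained. Peaks of at least 500 bp numbered 9.

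**Figure D4:**
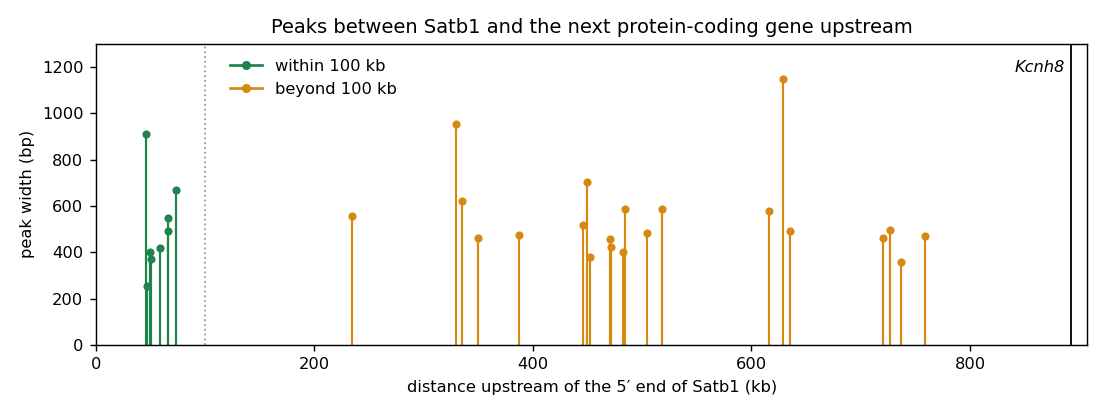
The distance upstream of the 5′ end of Satb1 (kb) is on the x axis and the height of each stem is the width of the peak (bp), with the 8 peaks within 100 kb in green, the 21 beyond in orange, a dotted line at 100 kb and a solid line at the neighbouring gene Kcnh8. Peaks stand at 46.3 to 73.2 kb and again from 234.7 to 758.7 kb, with the widest, of 1148 bp, at 628.7 kb.

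This stretch was set beside other long intervals without a protein-coding gene, a comparison chosen after its values were seen. Of 651 intervals of at least 500 kb between neighbouring protein-coding genes, 300 carried no peak and the median was 0.0613 peaks per 100 kb. The interval between Satb1 and Kcnh8 carried 30 peaks including one that reaches over the 5′ end of Satb1, or 3.36 per 100 kb, and 0.307% of the intervals were at least as dense, itself included. The one that was denser lies between Prl5a1 and Sox4, with 28 peaks in 797.3 kb (3.51 per 100 kb). On the other side of Satb1, the 556.8 kb up to Tbc1d5 carried 5 peaks, or 0.898 per 100 kb, and 7.53% of the intervals were at least as dense. Intervals under 500 kb, such as the 380.1 kb upstream of Lef1, did not enter this comparison. Among 12 further regulators of thymocyte genes, Lef1 had 14 peaks between 100 kb upstream and the next protein-coding gene, in 280.1 kb. Runx1 had 19 in 657.4 kb and Runx3 had 2 in 83.1 kb, and the rest had none in at most 2.83 kb. At Satb1 there were 21 in 792.5 kb.

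For the other members the same count gave 8 far upstream peaks at Tox, 2 at Myb and none at Tox2 and Themis. One of those at Myb, 135.1 kb away, lay over the start of the neighbouring gene Hbs1l. The searched stretch was 900 kb at Tox, where the next gene, Car8, lies beyond the limit of 1 Mb. It was 35.0 kb at Myb and 15.3 kb at Tox2, and Themis had none to search, since Ptprk ends 71.0 kb before it. The peaks upstream of Tox lay 154.4, 183.8, 215.5, 349.8, 372.9, 463.7, 695.9 and 996.1 kb from the 5′ end, and the widest measured 858 bp at 463.7 kb. Satb1 and Tox therefore differed within similar stretches, with 21 peaks in 792.5 kb and 8 in 900 kb.

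Tox, like Satb1, had 4 peaks touching its body, but its flanks differed, with 2 peaks downstream and none in the 100 kb upstream. All 3 intronic peaks lay in intron 1, which spans 148 kb of the 8 introns, and introns 2 to 8 had none although intron 3 spans 81.3 kb. The one nearest to the 5′ end (chr4:6861611-6862303) lay 56.7 kb from it and measured 693 bp. The farthest (chr4:6828444-6829829), at 89.6 kb, measured 1386 bp and was the widest distal peak of all members, with 0.99% of all distal peaks at least as wide. Over its whole length it held cores of 7 of the 9 families, all but the E protein and SP cores. The printed centre holds 2 of these cores and the others lie closer to its edges.

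Behind this peak the gene was bare. The last 214.9 kb of the body carried no peak, and the gap up to the next peak, downstream of the gene, was 218.9 kb. Downstream of the gene, peaks lay 309.5 kb (chr4:6608769-6609584, 816 bp) and 316.4 kb (chr4:6602086-6602544, 459 bp) from the 5′ end. A RUNX core occurred in all 5 distal peaks of Tox, beside 45.5% of all distal peaks, and a TCF1/LEF1 core in 4 of 5.

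Tox2, the relative of Tox, had peaks in the first part of its body and near its 3′ end, with the longest gap of 64.6 kb between them. Its intronic peaks lay in introns 1, 2 and 5 of 8, at 26.2, 50.5 and 115.8 kb from the 5′ end, with widths of 851, 1062 and 373 bp. Those in introns 1 and 5 lay 3494 and 1267 bp from the nearest annotated start of Tox2. The peak in intron 2 (chr2:163078807-163079868) was wider than all but 3.82% of distal peaks. The last 5.06 kb of the body had none. Upstream, peaks lay at 38.5 kb (706 bp) and 99.7 kb (696 bp), and a peak of 1086 bp at 81.9 kb lay within 1 kb of a start of Gm11454. Downstream, 2 peaks lay in introns of Jph2, 1 lay between genes, and a peak of 1121 bp, 216.3 kb from the 5′ end of Tox2, marked the start of 3230401D17Rik. E protein and RUNX cores each occurred in 6 of the 8 distal peaks of Tox2, beside 43.9% and 45.5% of all distal peaks. No distal peak of the Satb1 window had an E protein core, but 8 of the 21 far upstream peaks of Satb1 did. The median peak width was 706 bp in the Tox2 window and 479.5 bp in the Satb1 window.

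At Themis the peaks stood mainly before the gene. It had 6 peaks upstream, 3 touching the body and 1 downstream, and its last 153.3 kb had none. The intronic peaks lay in introns 1 and 2 of 5, at 26.8 kb (431 bp) and 62.0 kb (315 bp), and introns 3 to 5 had none. The widest peaks of the window stood upstream. Those of 1372 bp at 100.6 kb (chr10:28286861-28288232) and 1092 bp at 74.3 kb (chr10:28313310-28314401) lay in introns of Ptprk, which encodes a receptor-type tyrosine phosphatase, and that of 1010 bp at 48.9 kb (chr10:28338766-28339775) lay between the genes. Among all distal peaks 1.05, 3.35 and 4.82%, respectively, were at least as wide. The first of these overlapped the window only at its end, with its centre outside, and a count by peak centres gave 9 peaks at Themis. Over its whole length this peak held 5 TCF1/LEF1 cores and 3 GATA cores. The upstream peak nearest to the gene, at 3.1 kb, was the narrowest at Themis with 279 bp. The single downstream peak, of 285 bp at 286.9 kb, lay within 1 kb of a start of an annotated RNaseP_nuc gene.

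Myb, the shortest member with 36.05 kb, had 2 peaks touching its body, 4 upstream and 8 downstream. Besides the own-start peak, the body had a peak of 349 bp in intron 1, and introns 2 to 14 had none. The upstream peaks lay at 26.0, 63.5, 74.5 and 91.1 kb and measured 735, 550, 774 and 1217 bp. Downstream, peaks of 673 and 1250 bp lay 60.2 and 68.0 kb from the 5′ end between Myb and Ahi1, and 6 further peaks of 338 to 1017 bp lay in Ahi1, the neighbouring gene. The widest distal peaks were those of 1250 bp (chr10:20812194-20813443) and 1217 bp (chr10:20971253-20972469), with 1.73 and 1.99% of distal peaks at least as wide, and the next was that of 1017 bp in Ahi1 (4.64%).

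A window of this kind holds peaks that are nearer to other genes, and Myb was the member for which this mattered most. For 38 of the 53 peaks the nearest start of a protein-coding gene was a start of the member. These were all 12 peaks of Satb1, all 6 of Tox, 9 of 10 at Themis, 7 of 11 at Tox2 and 4 of 14 at Myb. The first place of Myb in number of peaks did not hold under this count either, in which Satb1 had the most. Of the 21 far upstream peaks of Satb1, 6 were nearest to a start of Satb1, out to 445.4 kb, and 15 were nearest to Kcnh8, among them the widest at 628.7 kb. At Tox 6 of the 8 far upstream peaks were nearest to Tox and 2 to Car8, and both of those at Myb were nearest to Hbs1l. Which gene a distal peak acts on was not measured.

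The widths of the member peaks were then compared with the list. Their median was 668 bp (95% interval from order statistics 466 to 774 bp) beside 551 bp over all peaks. For the 42 distal members it was 557.5 bp (457 to 706 bp) beside 465 bp for all distal peaks, and both values for the list lay inside the intervals of the members. Widths over 1 kb were found for 14 of the 53 members (26.4%, Wilson interval 16.4 to 39.6%), beside 14.7% of all peaks. They were found for 8 of the 42 distal members (19.0%, 9.98 to 33.3%), beside 5.03% of all distal peaks, so that the distal members differed from the list more in their share of wide peaks than in their median. Another peak lay within 5 kb of 17 of the 53 members (32.1%, Wilson interval 21.1 to 45.5%), beside 28.3% in the whole list.

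Next, the 9 motif cores were counted in the 42 distal member peaks and set beside all 21005 distal peaks. A TCF1/LEF1 core occurred in 24 of the 42 (57.1%, Wilson interval 42.2 to 70.9%), beside 34.4% of all distal peaks. A GATA core, bound in T cells by Gata3, occurred in 17 (40.5%, 27.0 to 55.5%), beside 22.3%. A RUNX core occurred in 26 (61.9%, 46.8 to 75.0%), beside 45.5%. For these 3 families the share of all distal peaks lay below the interval of the members.

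For the other families it lay inside the interval. RBPJ cores occurred in 22 of 42 (52.4%, 37.7 to 66.6%), beside 39.2%. E protein and ETS cores were each found in 19 (45.2%), beside 43.9% and 39.7% of all distal peaks. MYB cores were found in 11 (26.2%), beside 21.0%, AP-1 cores in 7 (16.7%), beside 15.3%, and SP cores in 5 (11.9%), beside 17.9%. The intervals treat peaks as independent draws, which peaks of 1 window are not, and they cover counting error only.

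Wider peaks have more letters in which a core can occur, and the median width of the distal members was above that of the list. The counts were therefore repeated in the central 200 bp, which give each peak the same length. There a TCF1/LEF1 core occurred in 17 of 42 members (40.5%, 27.0 to 55.5%), beside 16.4% of all distal peaks, and a GATA core in 8 (19.0%, 9.98 to 33.3%), beside 8.93%. RUNX cores were found in 14 (33.3%, 21.0 to 48.4%), beside 25.6%, which lay inside the interval. RBPJ cores were found in 9 (21.4%, 11.7 to 35.9%), beside 16.4%, also inside it. E protein cores were found in 6 (14.3%, 6.72 to 27.8%), beside 25.7%, and this share too lay inside the interval. An equal length does not equalize base composition. The median GC content over whole peaks was 47.6% for the distal members and 50.1% for all distal peaks, and its part in these shares was not tested.

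**Figure D5:**
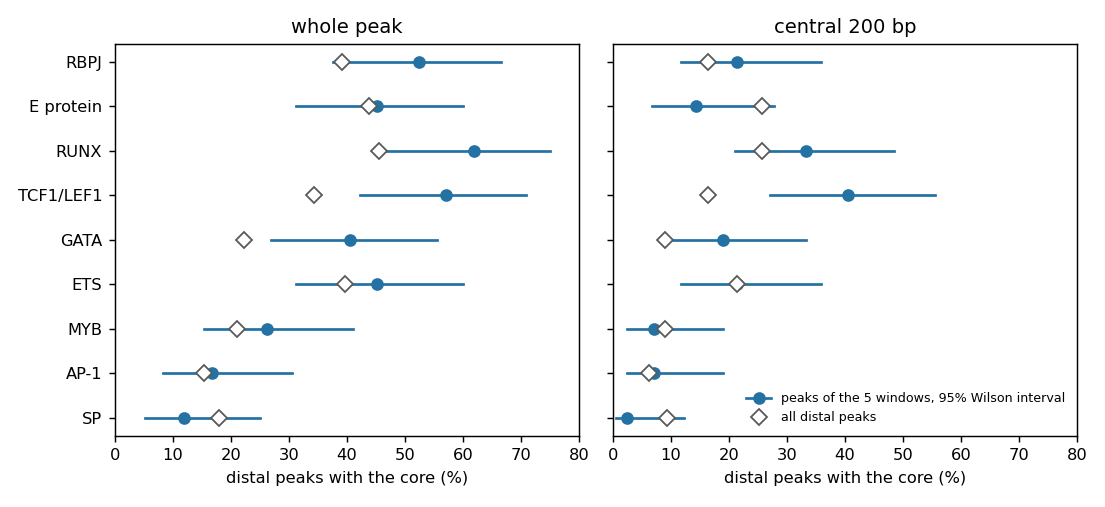
The x axis gives the percentage of distal peaks with each core, over the whole peak (left) and in its central 200 bp (right), for the 42 distal member peaks (blue points with 95% Wilson intervals) and all 21005 distal peaks (open diamonds). For TCF1/LEF1 the members stand at 57.1 and 40.5% and all distal peaks at 34.4 and 16.4%.

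Each window was then left out in turn, a check added after the data had been seen. The whole-peak share with a TCF1/LEF1 core ran from 51.7% without Myb (34.4 to 68.6%, an interval whose lower end met the share of all distal peaks) to 61.8% without Tox2. In the central 200 bp it ran from 35.1% without Tox (21.8 to 51.2%) to 44.8% without Myb, and the intervals of all 5 such counts lay above the 16.4% of all distal peaks. For the GATA and RUNX cores some of the intervals covered the share of the list. The whole-peak share with a GATA core fell to 34.5% without Myb (19.9 to 52.7%), which covered 22.3%, and its central share to 17.6% without Satb1 and likewise without Themis (8.35 to 33.5%), which covered 8.93%. The whole-peak share with a RUNX core was 56.8% without Tox (40.9 to 71.3%) and 58.8% without Tox2 or without Themis (42.2 to 73.6%), and these intervals covered 45.5%. Leaving out Tox2 also moved RBPJ and E protein cores. The whole-peak RBPJ share became 58.8% (42.2 to 73.6%), an interval above the 39.2% of all distal peaks. Its central interval (14.6 to 43.1%) covered 16.4%. The central E protein share became 5.88% (1.63 to 19.1%), below 25.7%, while its whole-peak interval (23.9 to 55%) covered 43.9%. With any other window left out, the RBPJ and E protein intervals covered the shares of all distal peaks. By gene the TCF1/LEF1 core was found in 9 of 13 distal peaks at Myb, 4 of 5 at Tox, 4 of 8 at Satb1, 4 of 8 at Themis and 3 of 8 at Tox2. GATA cores were found in 7 of 13 at Myb and 4 of 8 at Themis, and in 2 peaks at each of the other genes. RBPJ cores were found in 7 of 13 at Myb, 5 of 8 at Satb1, 5 of 8 at Themis, 3 of 5 at Tox and 2 of 8 at Tox2.

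The 21 far upstream peaks of Satb1, which are no part of the 42, were counted in the same way. A TCF1/LEF1 core was found in 6 of them (28.6%, 13.8 to 50%) and in the central 200 bp in 2 (9.52%, 2.65 to 28.9%), beside 34.4 and 16.4% of all distal peaks, which both lay inside these intervals. The whole-peak interval overlapped that of the 42 window peaks. RUNX cores were found in 10 (47.6%, 28.3 to 67.6%), beside 45.5% of all distal peaks. In the central 200 bp they were found in 9 (42.9%, 24.5 to 63.5%), an interval that covered the 25.6% of all distal peaks. RBPJ and E protein cores were each found in 8 (38.1%, 20.8 to 59.1%), beside 39.2% and 43.9% of all distal peaks. SP cores were found in none, a count that leaves an upper Wilson limit of 15.5%, beside 17.9% of all distal peaks. Whether the far and near peaks differ was not tested.

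Cores of several families occurred together in many of the peaks. At least 5 of the 9 families were present in 13 of the 42 distal members (31%), beside 14% of all distal peaks, while the median was 3 families in both. Width enters this count, and no member held 5 families in its central 200 bp, beside 0.457% of all distal peaks. There at least 2 families were present in 25 members (59.5%, 44.5 to 73.0%), beside 41.8%, and at least 3 in 7 (16.7%, 8.32 to 30.6%), beside 15%. No core was found anywhere in 2 members. The widest distal peaks at Tox and Themis held 7 families each, and the peak 91.1 kb upstream of Myb held 8.

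Finally, other genes of the same families and of the same network were examined. Of the paralogs, Themis2 was not matched in the annotation. Mybl1 and Mybl2, which encode relatives of Myb, had a peak within 1 kb of a start, whereas Tox3 and Tox4 had none. The window of Tox3 had no peak at all, beside 4 at Mybl1, 8 at Mybl2 and 9 at Tox4. Mybl2 lies near Tox2, and its window took in the 3 member peaks upstream of Tox2. The peaks at Tox4 lay outside its short body of 17.25 kb. Of 12 further regulators of thymocyte genes, 11 had a peak near an own start, beside 46.9% of all protein-coding genes. Zbtb7b, which directs the CD4+ lineage, did not. Their windows held 8 to 23 peaks with a median of 15.5, beside 6 to 14 with a median of 11 at the 5 members. The median over all protein-coding genes was 5. Since the windows differ in length, densities were also compared. The median was 5.27 peaks per 100 kb for these regulators, 3.43 for the members and 2.36 for all protein-coding genes.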

How the data were processed

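The 6 libraries, 3 of GSI-treated and 3 of DMSO-treated Beko cells, had been made with an ATAC-Seq kit, and their labels gave group and replicate. According to the study's methods and the submitters' processing notes, the authors trimmed the reads and aligned them to mm9 with HISAT2 2.2.1, with a single alignment reported for each. Duplicates were discarded with Picard, MACS2 was run with no input control, and MSPC merged replicates. A peak had to be present in 3 libraries and outside blacklisted regions. What the authors deposited is 1 list for both treatments with chromosome, start and end in bp, and 0 peaks have a name or a score above 0. Peaks of a single treatment can therefore pass and are not marked. Reads of repeats are placed at 1 of several equal sites, and local background stands in for an input, which can affect which peaks are called. A shift of read ends for the transposase is not given in the sources used here. Depth was not used, and 0 columns of other samples were present.

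File starts were read as counted from 0 and are printed counted from 1. The assembly NCBIM37, which is the same build, and GENCODE vM1 gave sequence, genes and the starts of all annotated transcripts, and a RefSeq table gave older symbols. Introns were numbered on the longest coding transcript, and a peak was placed by its centre once start-proximal peaks had been set apart. Counting was carried out with Python 3.11.15, pysam 0.24.0, numpy 2.4.6 and scipy 1.17.1, figures with matplotlib 3.10.9, and the counting steps were tested on simulated data. No test was run on the files, since peaks are not replicates.

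The rule for names took every member gene with its own-start peaks and its 3 widest other peaks, the far upstream peaks of Satb1, the intronic peaks of Tox, neighbours in the windows, and examples from lists of paralogs, thymocyte regulators and cell type markers. The members and lists were chosen with earlier results of these data known. Other peaks and the long intervals between genes were named after their values were seen. One paralog and the details of one intronic Tox peak are not reported here.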

Additional observations from a re-analysis of the deposited data

How the results depend on the processing

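No paired analysis was possible because the merged list gives positions and nothing for single libraries; the planned fit of GSI against DMSO, its replicate block and the leaving out of replicates were therefore not run. With 50 kb flanks, and again with peaks of at least 500 bp only, the 5 windows held 32 peaks in place of 53. The minimum width of 500 bp raised the median width to 870 bp and lowered the density to 1.80 peaks per 100 kb. The share of distal members with the RBPJ core was 21.4% in the central 200 bp and 69.0% with A or G at the third base, beside 16.4 and 61% of all distal peaks. The far upstream peaks of Satb1 numbered 12 with a limit of 500 kb and 9 at a width of at least 500 bp. The other 13 values of this kind moved by at most 1.5 times or stayed within the interval of the median width. They include 70 peaks with 200 kb flanks, 7 to 10 own-start peaks under other definitions of a start, 19 far upstream peaks after joining and 2 intronic Tox peaks at a width of at least 500 bp. The minimum width for Satb1 and Tox, the joining at Satb1, the leaving out of single windows and the count of families in the central 200 bp were chosen after seeing the data. Width enters every count, since peaks are kept or split by the authors' caller, and without values per library neither the height of a peak nor its presence in a treatment can be given.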
